A study of Mus musculus with 6 samples.

Results

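Capillary endothelial cells, which line the smallest blood vessels, were examined in the soleus muscle of young and old mice after hindlimb unloading (HU), a period in which the hindlimbs bear no weight. The cells were selected on their transcripts, so the genes of the rule describe the cells and are not findings. A barcode of an HU library was kept with at least 200 genes and at most 10% of its unique molecular identifiers (UMIs, 1 for each captured transcript molecule) from mitochondrial genes. It was taken as endothelial when it held a UMI of at least 4 of the 10 genes Fabp4, Gpihbp1, Egfl7, Cav1, Car4, Ramp2, Cavin2, Timp4, Cdh5 and Pecam1, at most 1 UMI over C1qa, C1qb and C1qc, and 0 UMIs of Col1a1, Cd3e and Cd79a. The rule found 515 cells among 3408 kept HU barcodes and 15467 barcodes of the whole series, 323 in young HU and 192 in old HU.

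All animals were male C57BL/6 mice, 4 to 5 months old in the young groups and 20 to 22 months old in the old groups. By the paper, the young mice came from a University of Utah core and the old mice from the National Institute on Aging. Old against young therefore cannot be told apart from a difference of source. At each age there was an ambulatory control group, an HU group and a reload group that bore weight again for 4 days. Solei of several mice were pooled within a group, dissociated, and sorted by flow cytometry for CD45+ DAPI- cells, that is, for living cells with the common leukocyte antigen on their surface. Each pool gave 1 single-cell library, so the 2 HU groups had no replicate, no difference between ages could be tested, and all intervals below are 95% intervals that cover counting error only. The sample descriptions carry one flow cell code for control and another for both other conditions, and the titles carry a separate number for each condition, so HU against control cannot be told apart from a difference of flow cell.

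Endothelial cells form the barrier between blood and tissue and carry platelet endothelial cell adhesion molecule (Pecam1) and VE-cadherin (Cdh5) at their junctions. Those of muscle capillaries also take up fatty acids for the fibers: Gpihbp1 anchors lipoprotein lipase on the vessel wall, Cd36 takes up fatty acids and Fabp4 binds them in the cell. They express no CD45 as a rule, which makes their presence in a CD45+ sort unusual.

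The endothelial cells took a larger share of the young than of the old HU library. They made up 21.3% of 1518 kept young HU cells (exact binomial interval 19.2 to 23.4%) and 10.2% of 1890 kept old HU cells (8.83 to 11.6%). The old share was lower by 11.1 percentage points, with a Newcombe interval of the difference (old minus young) from -13.6 to -8.66. Outside HU the same rule found few cells. In control it took 3 of 1605 young cells (0.187%) and 4 of 2631 old cells (0.152%). At reload it took 8 of 2451 young cells (0.326%) and 19 of 2425 old cells (0.784%). Barcodes over the mitochondrial limit also differed between the HU libraries, at 27.5% in young and 9.60% in old, and with a limit of 20% in place of 10% the shares differed by 10.0 points. These are shares of cells that passed the sort and the filters, not numbers of endothelial cells in the muscle.

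**Figure D1:**
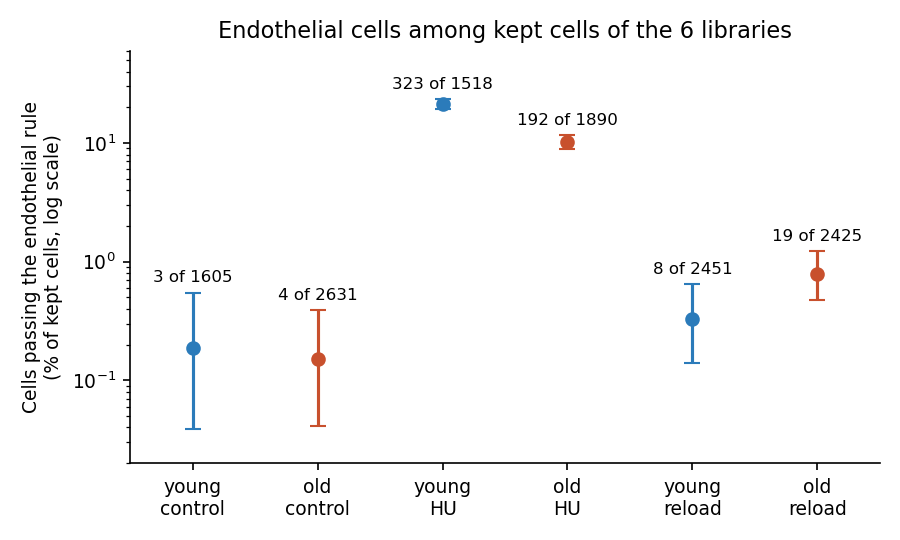
Share of kept cells that passed the endothelial rule (%, log scale) in each of the 6 libraries, with exact binomial 95% intervals for counting error. Both HU libraries sit above 10%, young over old, and the other 4 libraries sit under 1%.

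The depth of the cells was of the same order at both ages. The young HU endothelial cells held 845465 UMIs in all, with a median of 1836 per cell (506 to 21728) and 926 genes, and the old ones held 544587, with a median of 2226 per cell (503 to 11203) and 1094.5 genes. The median mitochondrial share was 3.96% in young and 2.90% in old. A median of 8 of the 10 rule genes had a UMI at both ages, and 80 young and 46 old cells had all 10. At the edge of the rule, 13 young and 15 old cells had exactly 4 of the genes, with median depths of 840 and 929 UMIs, and 8 cells in each library had exactly 3 and stayed outside, with median depths of 839 and 2606. The HU libraries shared 5 barcode sequences, and no barcode passed the rule in more than 1 library.

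Genes that the rule did not use gave the cells the identity of endothelium, and of capillaries more than of arteries or veins. All 20 genes of a further endothelial list were detected at both ages, and the median cell had a UMI of 9 of them. The median cell also had 6 of 12 capillary genes, and at least 3 of them were found in 95.4% of young and 93.8% of old cells. At least 3 of 10 arterial genes were found in 13.3% of young and 9.38% of old cells, and at least 3 of 8 venous genes in 3.1% and 2.08%. To compare shares at equal depth, cells with at least 1000 UMIs were thinned to 1000, which left 259 young and 156 old endothelial cells and set aside 64 and 36. Thinned, Flt1, a receptor for vascular endothelial growth factor (VEGF), had a UMI in 43.2% of young and 49.4% of old cells (68.7% and 75.5% unthinned). Cd36 had one in 82.2% and 75%, and Rgcc, which is enriched in capillaries, in 80.3% and 84.6%. All 6 genes of a lymphatic list had UMIs at both ages, with at least 3 of them in 4 young (1.24%) and 2 old cells (1.04%). Of these genes Prox1, the defining transcription factor of lymphatic endothelium, was found in 0 of the thinned cells of either age. Among macrophages of the same libraries, taken as cells with all 3 C1q genes, Flt1 was found, thinned, in 0 of 534 young and 0.174% of 576 old cells and Cd36, which macrophages also express, in 38.4% of young and 37.0% of old cells.

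**Figure D2:**
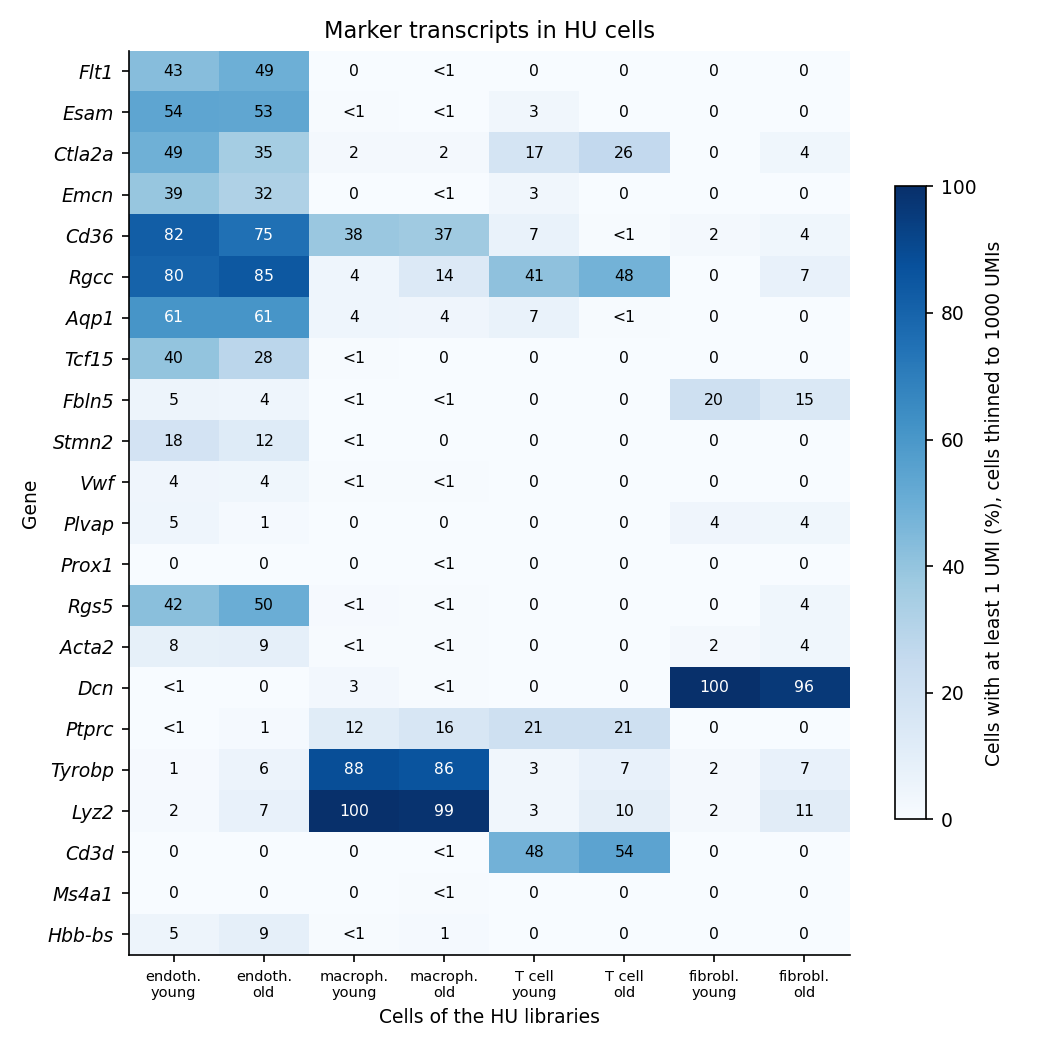
Percent of cells with at least 1 UMI of each marker, after thinning to 1000 UMIs, in endothelial cells, macrophages, T cells and fibroblasts of the young and old HU libraries (color scale 0 to 100%). Endothelial and capillary genes fill the endothelial columns, Rgs5 appears there in 42% and 50% of cells, and Ptprc, Tyrobp, Lyz2, Cd3d and Dcn belong to the other columns.

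Ptprc, the gene of CD45, was nearly absent from these CD45-sorted cells. Unthinned, 2 of 323 cells in young HU held a UMI of it (0.619%, interval 0.0751 to 2.22%), as did 7 of 192 in old HU (3.65%, interval 1.48 to 7.37%), against 33.4% and 49.3% of macrophages and 50% and 56.2% of T cells, whose median depths lay between 2514.5 and 4010.5 UMIs. Fibroblasts, which lack CD45 too, had it in 0 of 51 young and 0 of 27 old cells. How these cells passed the sort was not tested.

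Some of the endothelial barcodes carried transcripts of other cells, and those of leukocytes and macrophages were found more often in old HU. A list of 8 genes of leukocytes in general summed to 94.6 CPM (counts per 1000000 UMIs of the endothelial cells of that library) in young and 639 CPM in old, with at least 1 UMI in 13 young cells (4.02%) and 19 old cells (9.90%), and at least 3 of the genes in 4 and 10 cells. A further 9 macrophage genes summed to 72.1 and 373 CPM. Mural cells, the pericytes and smooth muscle cells that wrap small vessels, left more: at least 1 of 10 mural genes was found in 55.7% of young and 60.4% of old cells and at least 3 in 17.0% and 22.9%. Their sum was 3341 CPM in young and 2800 CPM in old, most of it from Rgs5 (1613 and 1680 CPM), Acta2 (840 and 446) and Tagln (520 and 263). Other pericyte genes were found as well: in young cells Kcnj8 had 102 UMIs, Higd1b 49, Abcc9 47 and Pdgfrb 34. Cspg4 had few, 2 in young and 5 in old. Hemoglobin passed 1% of the UMIs in 9 young and 8 old cells and reached 87.4% of them in one young and 58.8% in one old cell. Doublet scoring with scrublet marked 5 young and 7 old endothelial barcodes. The part of these transcripts in the results below was not tested, and values without the cells concerned are given where they moved most.

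Old and young endothelial cells were compared by summing UMIs over the endothelial cells of a library and scaling to CPM. A gene counted as higher or lower when its CPM differed by at least 1.5-fold (0.58 on the log2 scale), a threshold of size only, since nothing was tested. Of 3465 genes with at least 50 UMIs over both libraries, 296 (8.54%) were higher in old and 373 (10.8%) were lower, and for 249 and 256 of these the counting interval lay past 0. The median log2 ratio of old over young was -0.07, so the list medians below are read against a value close to 0. In the same way the counts of higher and lower genes in each list are read against 8.54% and 10.8%, and many lists are small. The split rested on scaling: in UMIs per cell without scaling, 392 genes were higher and 266 lower, 59.6% higher among those counted against 44.2% with scaling. The interval of a gene with 50 to 100 UMIs reached a median of 0.77 to either side on the log2 scale, against 0.13 for a gene with at least 1000.

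**Figure D3:**
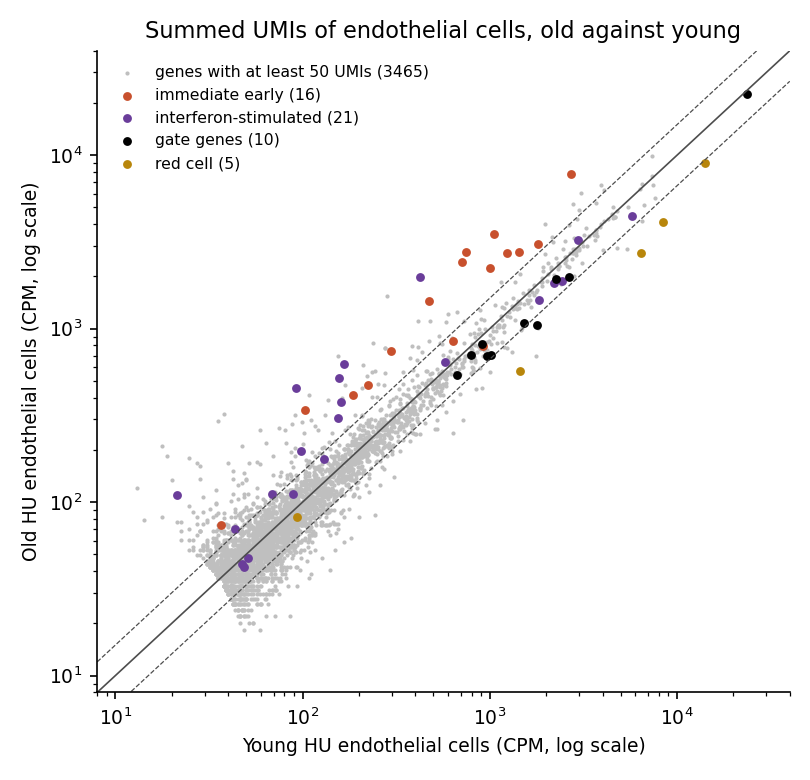
Summed UMIs of old HU against young HU endothelial cells (CPM, log scales) for 3465 genes, with the line of equality and dashed lines at 1.5-fold. Most immediate early genes lie above the upper line, the rule genes lie on or just under equality, and the red cell genes lie below it.

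Most immediate early genes were higher in old HU endothelial cells. They encode short-lived transcription factors and feedback regulators that cells switch on within minutes of a stimulus, with no new protein needed. Of 17 listed, 16 were measured, 14 were higher in old, 0 were lower, and the median log2 ratio was 1.16. Their sum was 13580 CPM in young and 32454 CPM in old. With 1 pool for each age, dissociated and sorted before sequencing, age cannot be told apart from the handling of the pool. The part of handling in these levels was not tested.

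Egr1, a zinc-finger transcription factor, stood at 743 CPM in young and 2758 CPM in old, a log2 ratio of 1.89 (1.76 to 2.03). The AP-1 subunit Fos stood at 707 and 2407 CPM, 3.40-fold higher in old (log2 1.77, 1.63 to 1.91). Its partner Junb stood at 2706 and 7766 CPM, 2.87-fold higher. All 3 were past the called fold, with intervals well clear of it. Ier3, which protects cells from apoptosis, stood at 1050 and 3516 CPM, and the nuclear receptor Nr4a1 at 103 and 340 CPM. Atf3, a stress-induced transcription factor, stood at 471 and 1445 CPM. Feedback regulators were also higher: Socs3, an inhibitor of cytokine signaling, at 298 and 744 CPM, the phosphatase Dusp1 at 1007 and 2246 CPM, and Zfp36, which speeds the decay of cytokine messages, at 1234 and 2740 CPM. Jun was higher by less, at 1819 and 3090 CPM (log2 0.76). The 2 members that were not called were Klf6, at 635 and 854 CPM, and Jund, at 919 and 791 CPM, the AP-1 gene that resting cells already express.

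The higher level was spread over the cells. Thinned to 1000 UMIs, the median young cell held 9 immediate early UMIs (quartiles 4 to 19.5) and the median old cell 31 (19 to 43). The 10% of cells with most of them held 35.7% of these UMIs in young and 19.4% in old. Thinned, Egr1 had a UMI in 33.6% of the young cells, with an interval of 27.9 to 39.7%, and in 81.4% of the old, with one of 74.4 to 87.2%, and Fos in 27.4% and 74.4% (unthinned, Egr1 46.4% and 83.3%, Fos 38.4% and 79.7%). Among macrophages the thinned shares were closer, 29.6% and 40.3% for Egr1 and 56.9% and 60.6% for Fos. Over all other kept HU cells the list's median log2 ratio was 0.13, with Egr1 at -0.18, Fos at -0.41 and Jun at -0.92 but Ier3 at 1.16, Nr4a1 at 0.69 and Junb at 0.24, although the types of cells there differed between the ages as well. Without cells that held any leukocyte or macrophage UMI the list's median in endothelial cells was 1.11, and with at most 1 mural gene it was 1.47.

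**Figure D4:**
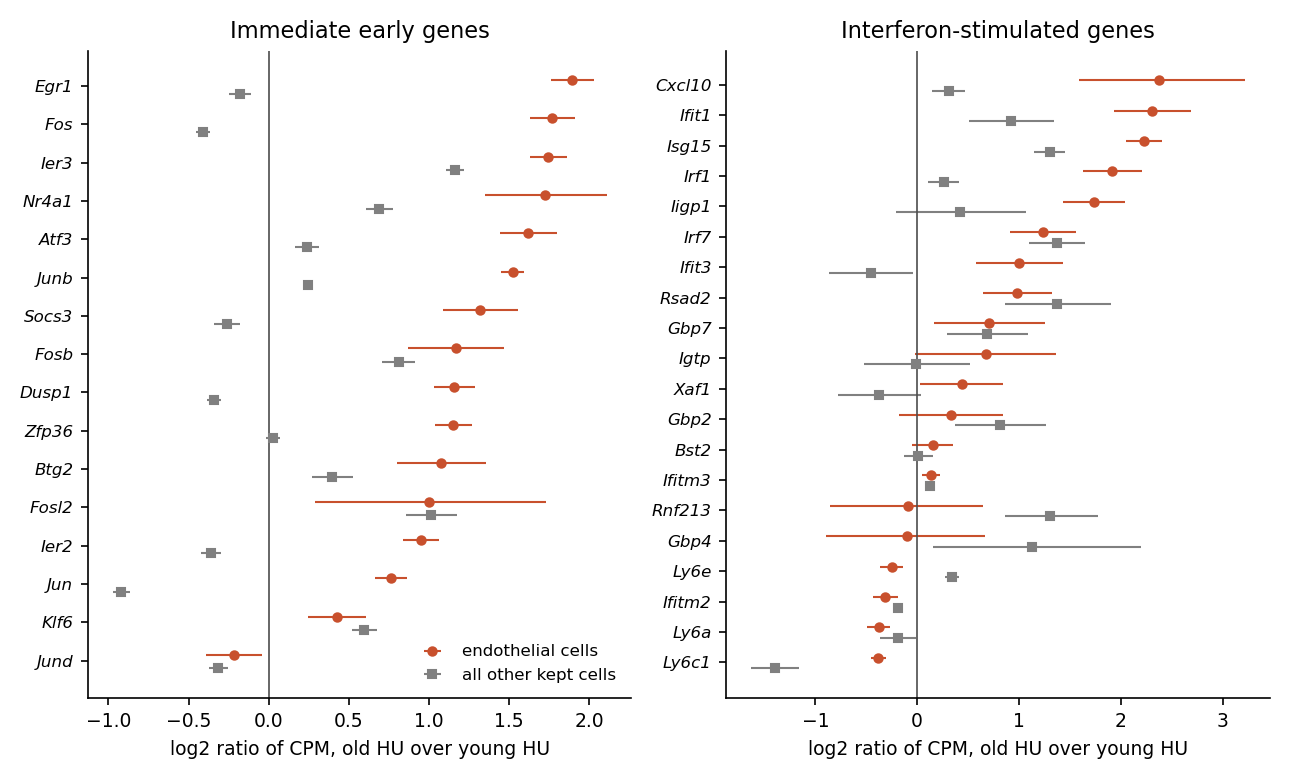
Log2 ratio of CPM, old HU over young HU, for the 16 measured immediate early genes (left) and 20 of the 21 measured interferon-stimulated genes (right), in endothelial cells (red circles) and in all other kept cells (gray squares), with 95% counting intervals. On the left 15 of 16 red points lie above 0, from 0.43 to 1.89, while the gray points fall on both sides, and on the right the red points run from -0.38 to 2.37.

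Part of the interferon-stimulated genes was higher in old HU endothelial cells. These genes are switched on by interferons and encode antiviral and antigen-processing proteins. Of 25 listed, 21 were measured, 10 were higher in old and 0 lower, and the median log2 ratio was 0.44. Over all other kept HU cells the same list had a median of 0.34, with Isg15 at 1.30 and Ifit1 at 0.92, so higher levels were not confined to the endothelial cells. Isg15, a ubiquitin-like modifier, stood at 425 CPM in young and 1990 CPM in old, 4.69-fold higher (log2 2.23, 2.06 to 2.41). Ifit1, which binds foreign RNA, stood at 92.3 and 455 CPM, 4.94-fold higher (log2 2.30, 1.93 to 2.69). Both levels rested on many cells: thinned, Isg15 had a UMI in 17.8% of young and 55.8% of old cells, and Ifit1 in 3.86% and 23.1% (unthinned 28.2% and 65.1%, and 10.2% and 31.8%). Macrophages had Isg15 in 5.62% and 15.6%, thinned.

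Transcription factors of the response were among the higher genes. Irf1 stood at 166 CPM in young and 624 in old (log2 1.91) and Irf7 at 161 and 378 (log2 1.23). The guanosine triphosphatase (GTPase) Iigp1 stood at 156 and 520 CPM, and the antiviral enzyme Rsad2 at 155 and 307. Cxcl10, a chemokine that attracts T cells, had 18 UMIs in young and 60 in old (21.3 and 110 CPM, log2 2.37, 1.59 to 3.22), with at least 1 UMI in 1.55% and 11.5% of cells. The young UMIs lay in 5 cells. In cells with at most 1 mural gene its log2 ratio was 4.44, a value that rests on no more than these 18 young UMIs. The most abundant members went the other way or barely differed. Ly6c1 stood at 5770 and 4435 CPM (log2 -0.38), Ly6a, the Sca-1 antigen of mouse endothelium, at 2442 and 1878 (log2 -0.38, both of a family of close relatives that can share reads), and Ifitm3 at 2962 and 3256 (log2 0.14). Because of these, the sum of the list hardly differed, at 17576 and 18811 CPM, and the median thinned cell held 17 of its UMIs at both ages. Without cells that held leukocyte or macrophage UMIs, Isg15 was at 2.57 and Ifit1 at 2.84.

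Promoters of 3 of the genes higher in old are printed to show the element through which interferon factors bind. The interferon-stimulated response element was searched as GAAANNGAA on both strands in the 250 bases before each start site of RefSeq genes (mouse build GRCm38.p6), and matches are in capitals. Each sequence is read along its gene, 5′ to 3′, and ends at the base before the start site. The Isg15 promoter lies at chr4:156200819-156201068 on the minus strand, that of Ifit1 at chr19:34640639-34640888 on the plus strand, and that of Rsad2 at chr12:26456453-26456702 on the minus strand.
Isg15: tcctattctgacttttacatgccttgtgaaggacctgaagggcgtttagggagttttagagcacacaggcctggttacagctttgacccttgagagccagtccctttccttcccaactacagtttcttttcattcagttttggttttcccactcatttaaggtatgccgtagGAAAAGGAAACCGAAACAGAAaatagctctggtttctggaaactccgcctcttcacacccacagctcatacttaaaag
Ifit1: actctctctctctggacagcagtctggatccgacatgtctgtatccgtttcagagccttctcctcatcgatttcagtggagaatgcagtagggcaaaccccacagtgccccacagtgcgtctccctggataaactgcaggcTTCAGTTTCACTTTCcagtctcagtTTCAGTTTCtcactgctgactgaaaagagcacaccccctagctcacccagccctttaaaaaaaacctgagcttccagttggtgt
Rsad2: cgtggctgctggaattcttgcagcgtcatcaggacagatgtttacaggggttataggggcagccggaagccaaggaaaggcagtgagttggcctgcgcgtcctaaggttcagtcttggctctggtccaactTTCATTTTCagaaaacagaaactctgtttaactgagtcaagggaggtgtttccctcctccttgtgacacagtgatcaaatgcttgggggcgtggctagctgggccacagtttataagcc
Isg15 has 3 matches that overlap. Ifit1 has 3, of which 2 overlap, and Rsad2 has 1, and in both of these genes the matches are on the other strand, written as the reverse complement. The letters were found before 8.18% of 27025 genes. They were found before 11 of the 19 listed interferon genes that the reference held, 7 of 9 that were higher in old and 3 of 7 that were measured and not higher. The cyclic AMP response element, searched as TGACGTCA in the same windows, was found before 1.77% of all genes and 2 of 14 immediate early genes. A match is a description of the letters only.

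Antigen-presentation genes of class I and class II differed in how they were spread. Of 11 measured class I genes 1 was higher, H2-Q4 at 208 and 314 CPM (a gene with close relatives that share reads), with a list median of 0.27. B2m, the common light chain, stood at 1344 and 1335 CPM. All 4 measured class II genes were higher in old, with a median of 1.19, Cd74 standing at 477 CPM in young and 1104 in old. However, 94.5% of the old Cd74 UMIs lay in a single cell, and 43.9% of the young ones in 1 cell. For H2-Aa these shares were 94.6% in old and 49.4% in young. In thinned cells 92.3% of young and 91.0% of old held no class II UMI. Without cells that held a Ptprc UMI the direction turned, with Cd74 at -2.19 and H2-Aa at -1.99. The part of the single young cell in these 2 values was not tested.

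**Figure D5:**
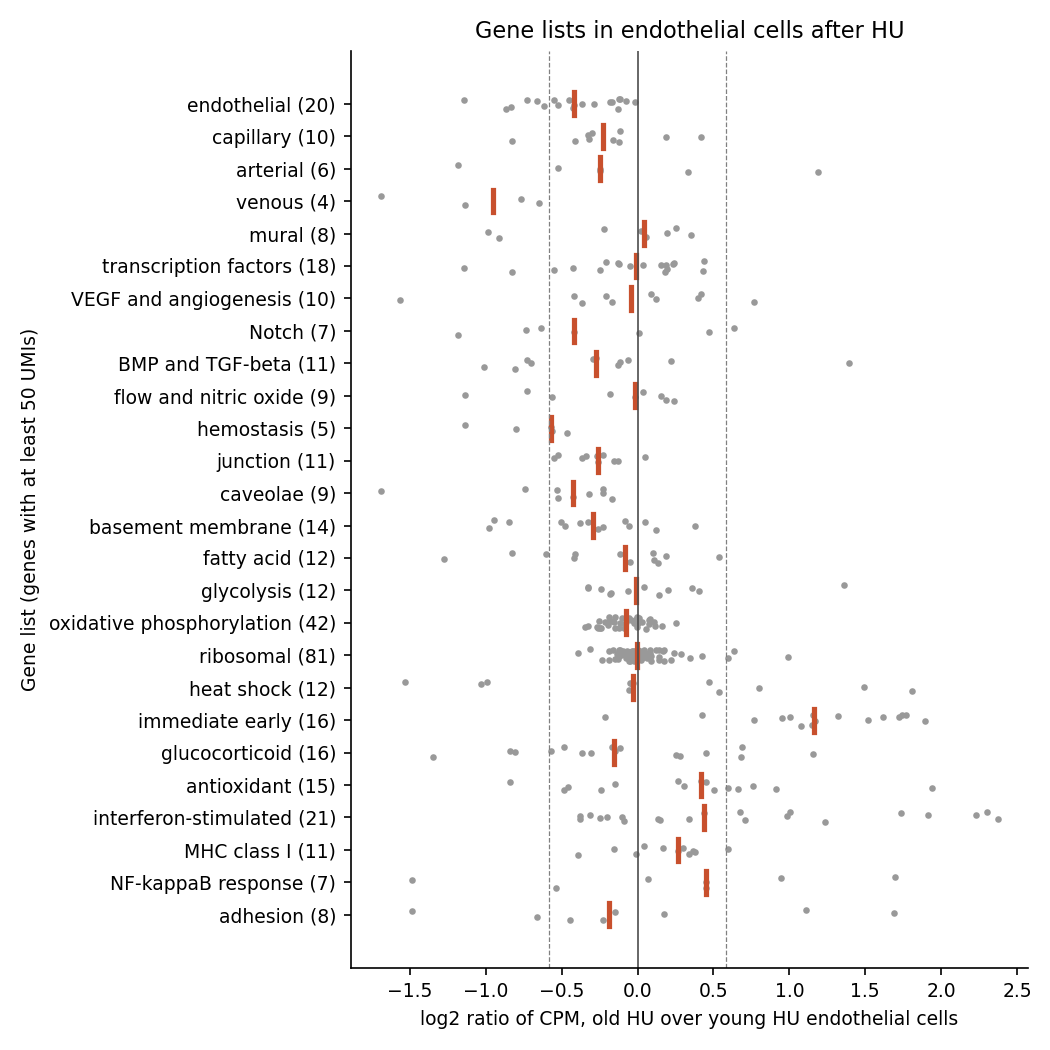
Log2 ratio of CPM, old HU over young HU endothelial cells, of every measured gene (gray points) in 26 gene lists, with the list median (red bar) and dashed lines at 1.5-fold in both directions. The immediate early median stands at 1.16, most other medians lie between -0.50 and 0.50, and the venous one at -0.95.

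Endothelial identity genes were lower in old, most of them by less than 1.5-fold. All 20 had a log2 ratio under 0, with a median of -0.42, and 6 were called lower. Without depth scaling the median was -0.31, and Tie1, Eng and Nos3 lay above 0. The largest difference was that of Sox18, a transcription factor of vessel development (chromosome 2, 181669836 to 181671640, minus strand, mm10), at 309 CPM in young and 140 in old (log2 -1.15, -1.53 to -0.77). Its relative Sox17 stood at 485 and 362 CPM, and Sox7 at 157 and 213. Tek (Tie2), the receptor for angiopoietins, stood at 134 and 73.5 CPM, Ptprb, the phosphatase that restrains it, at 558 and 364, and Tie1 at 340 and 321. Ctla2a, a protease inhibitor, stood at 1003 and 564 CPM, S1pr1, a receptor that stabilizes the barrier, at 697 and 421, and Icam2 at 453 and 287. The genes of the rule, which chose the cells, had ratios under 0 as well (median -0.36), of which Ramp2, the partner of the adrenomedullin receptor, was the only one past 1.5-fold, at 1782 and 1052 CPM. Among 10 measured capillary genes Tcf15 was lower, at 587 and 330 CPM (log2 -0.83), and Kdr, the main VEGF receptor, stood at 224 and 299. When the cells were chosen instead by 10 other endothelial genes, the endothelial list had a median of -0.43.

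Genes of larger vessels had few UMIs. All 4 measured venous genes were lower in old (median -0.95), 3 of them with intervals wholly under 0. The other was Lrg1 (39 and 16 UMIs, interval -1.59 to 0.22), of which 1 cell held 48.7% of the young and 1 cell 50% of the old UMIs. Plvap (chromosome 8, 71497765 to 71511752, minus strand, mm10), which forms the diaphragms of fenestrae, stood at 59.1 and 18.4 CPM (50 and 10 UMIs). Vwf, a clotting protein stored in endothelium, stood at 68.6 and 31.2 CPM (58 and 17 UMIs). Vwf was at -0.27 in thinned cells. Of 6 measured arterial genes, the Notch target Hey1 stood at 71.0 and 31.2 CPM and was lower (log2 -1.18, and -2.25 with at most 1 mural gene). The connexin Gja4 stood at 37.9 and 86.3 CPM and was higher, but stood at -3.41 (-8.79 to -0.73) in cells with at most 1 mural gene. Smooth muscle is also known to express Gja4, and its part here was not tested.

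Signaling lists are given by their members. In the VEGF and angiogenesis list, 1 of 10 was higher and 1 lower, near the shares over all genes (8.54% and 10.8%), with a median of -0.04. The lower one was Pdgfb, the ligand with which endothelium recruits pericytes, at 109 and 36.7 CPM (log2 -1.57, -2.34 to -0.86) and with a UMI in 22.0% of young and 9.38% of old cells. The higher one was Adm, the vasodilator adrenomedullin, at 85.2 and 145 CPM (log2 0.77, and 1.36 with at most 1 mural gene). Of 7 measured Notch genes, Hes1 was higher at 174 and 270 CPM and Hey1, Jag2 and Notch4 were lower, Jag2 and Notch4 with intervals that reached past 0. Of 11 genes of the bone morphogenetic protein and TGF-beta pathways, 9 had a ratio under 0 (median -0.27) and 4 were lower: the ligand Bmp6 (81.6 and 40.4 CPM), the receptor Bmpr2 (112 and 64.3), the mediator Smad1 (125 and 77.1) and the target Id1 (636 and 384). Id2 was higher at 42.6 and 112 CPM, while Id3, far more abundant, stood at 2894 and 2771.

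Genes of the capillary's work in fatty acid transfer included 2 that chose the cells, Fabp4 (23510 CPM in young and 22678 in old) and Gpihbp1 (2651 and 1987), whose values are a description only. Of 12 measured in all, 0 were higher and 3 were lower: Ucp2, an uncoupling protein of mitochondria, at 716 and 296 CPM (log2 -1.28, -1.54 to -1.02), Tcf15, a regulator of endothelial fatty acid uptake, and Lpl, lipoprotein lipase, at 1186 and 782 CPM. Pparg, a transcription factor of lipid genes, stood at 92.3 and 134 CPM. Caveolae, the membrane pits that fill capillary endothelium, had 2 of 9 genes lower (Ehd2, which stabilizes their necks, at 375 and 224 CPM, and Plvap), with a median of -0.43 over a list that holds the rule genes Cav1 and Cavin2. Of 14 basement membrane genes 3 were lower: Col4a1, a chain of collagen IV, at 509 and 264 CPM, the collagen-binding Sparc at 1816 and 1010, and Col15a1 at 54.4 and 27.5. Of 11 junction genes 0 were called in either direction (median -0.26), with Cldn5, the claudin of endothelial tight junctions, at 516 and 358 CPM.

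Of 9 measured genes that answer to blood flow, the rule gene Pecam1 among them, 0 were higher and 2 were lower, S1pr1 (given above) and Edn1. The flow-induced transcription factors Klf2 and Klf4 stood at 1926 and 2270 CPM and at 596 and 665 CPM, and endothelial nitric oxide synthase, Nos3, at 65.1 and 64.3. Edn1, the vasoconstrictor endothelin, stood at 117 and 53.3 CPM (log2 -1.14, -1.79 to -0.53). Of 5 measured hemostasis genes 2 were lower, Vwf and Entpd1, which degrades the platelet activator ADP (76.9 and 44.1 CPM). Thrombomodulin (Thbd), which turns thrombin to an anticoagulant role, stood at 84.0 and 56.9 CPM, a log2 ratio with an interval from -1.22 to 0.07.

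Genes for contact with leukocytes did not go one way: of 8 measured, 2 were higher and 2 lower, Icam2 (given above) among the lower. Icam1, which leukocytes bind to cross the wall, stood at 87.5 and 283 CPM (log2 1.69, 1.28 to 2.11), with a UMI in 11.5% of young and 31.2% of old cells, and the neutrophil chemokine Cxcl1 at 101 and 217 CPM. Icam1 was as high in all other kept cells, at a log2 ratio of 1.86. The monocyte chemokine Ccl2 was lower, at 149 and 53.3 CPM, yet had a UMI in 4.33% of young and 6.77% of old cells, and Vcam1 had 18 and 4 UMIs. Sele (E-selectin) had 0 UMIs in both libraries, a count that allows up to 3. Among 7 measured targets and members of NF-kappaB signaling, Nfkbiz, at 80.4 and 261 CPM, and Bcl3, at 39.0 and 75.3, were higher, and the inhibitor Nfkbia stood at 1367 and 1867. The median of this list was 0.45, against 1.11 in all other kept cells, where Nfkbiz was at 1.16.

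Stress lists were split within themselves. Of 12 measured heat-shock genes 3 were higher and 3 lower. Dnajb1, a co-chaperone, stood at 238 and 832 CPM (log2 1.81, and 2.71 with at most 1 mural gene) and Hspa5, the chaperone of the endoplasmic reticulum, at 276 and 775 (log2 1.49). Hspa1a and Hspa1b, near-identical copies whose reads can be split between them, were both lower, at 906 and 455 CPM and at 181 and 62.4 CPM, and with at most 1 mural gene Hspa1b was at -0.81. Of 16 glucocorticoid-responsive genes 3 were lower, Fkbp5, Tsc22d3 and Zbtb16, at 84.0 and 33.1, 523 and 299, and 88.7 and 49.6 CPM. The 3 higher ones, Dusp1, Cdkn1a and Errfi1, respond to other stimuli too. Of 15 antioxidant and iron genes 5 were higher and 1 lower. Ferritin, which stores iron, was higher in both chains, Fth1 at 3945 and 6697 CPM and Ftl1 at 2783 and 5248, and Txnip, which binds thioredoxin, was lower at 1319 and 736. Hmox1, which degrades heme, was at a log2 ratio of 1.94, but 48.1% of its old UMIs lay in 1 cell and it was at 0.65 without leukocyte- and macrophage-bearing cells.

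Of 10 measured genes of p53 and senescence, 2 were higher, Cdkn1a and Gadd45b, and 2 lower, Ccng1 and Igfbp3, with a median of -0.14. The inhibitor Cdkn1a (p21) stood at 1152 and 1847 CPM, 1.60-fold higher in old, and Gadd45b at 69.8 and 185 (log2 1.41, and 2.36 with at most 1 mural gene). Igfbp7, a secreted protein linked with senescence, stood at 4019 and 2859 CPM and Igfbp3 at 281 and 184. Of 9 hypoxia genes 2 were higher, Adm and Ankrd37 (42.6 and 136 CPM, log2 1.67, and 2.35 with at most 1 mural gene), with Epas1, the hypoxia factor of endothelium, at 590 and 542. Of 17 cell-cycle genes 4 reached 50 UMIs, of which Pcna and Ccnd1 were higher. Ccnd1 had 31 UMIs at each age and an interval of its log2 ratio from -0.13 to 1.40.

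Energy metabolism and ribosomal genes were close to equal. Of 42 nuclear oxidative phosphorylation genes 0 were called in either direction, with ratios from -0.34 to 0.26 and a median of -0.08. Of 12 glycolytic genes 1 was higher, Ldhb (log2 1.36, and 0.32 with at most 1 mural gene), with Gapdh at 1894 and 1954 CPM. Of 13 genes of the mitochondrial genome, a list that the mitochondrial limit acts on, mt-Cytb and mt-Nd4l were lower, mt-Atp8 was higher and the median was -0.46. Of 81 ribosomal protein genes 3 were higher and 0 lower, Rps29 by 1.98-fold, and that gene was also higher in all other kept cells (log2 1.13).

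The largest ratios were read by a fixed rule, the 10 highest and 10 lowest among 559 genes with at least 100 UMIs, an interval past 0 and no single cell with over 50% of a library's UMIs. Among the highest, Socs1, an inhibitor of interferon signaling, had 16 UMIs in young and 101 in old (18.9 and 185 CPM, log2 3.29, 2.52 to 4.15) and a UMI in 4.64% and 31.2% of cells. Tnfsf9, a co-stimulatory ligand of the tumor necrosis factor family, stood at 37.9 and 323 CPM (log2 3.09, 2.54 to 3.69), and Sertad1, a cell-cycle regulator, at 284 and 1535 (log2 2.44, 2.23 to 2.65). Marcksl1 stood at 24.8 and 180 CPM (21 and 98 UMIs, log2 2.86, and 4.07 with at most 1 mural gene), and the non-coding Gm26532 at 155 and 698. With Isg15 and Ifit1 these were spread over 22.4% to 77.6% of old cells. All 7 were higher in all other kept cells too, by less: Socs1 was at 1.76 there, Marcksl1 at 1.77, Isg15 at 1.30, Sertad1 at 1.18, Tnfsf9 at 1.12, Ifit1 at 0.92 and Gm26532 at 0.76. The other 3, Tyrobp, Lyz2 and Fcer1g, are leukocyte genes, found in 6.77%, 9.90% and 5.73% of old cells, and in cells without a Ptprc UMI their log2 ratios were 2.57, 1.51 and 1.65.

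Among the lowest were Pdgfb, Hspa1b and Ccl2, given above. Gene 8430408G22Rik stood at 1774 and 698 CPM (log2 -1.35, -1.51 to -1.18) and had a UMI in 80.8% of young and 58.9% of old cells. Tcim stood at 634 and 250 CPM (log2 -1.34, -1.63 to -1.07), and Cebpg, a transcription factor of the integrated stress response, at 127 and 47.7. Ccni stood at 111 and 38.6 CPM and the mitochondrial carrier homolog Mtch1 at 167 and 58.8. The remaining 2 were the non-coding Gm26917 (140 and 40.4 CPM) and the model CAAA01147332.1 (243 and 84.5). Most of these genes were lower over all other kept cells too. Hspa1b was at -2.77 there, 8430408G22Rik at -2.27 (100 and 30 UMIs) and Tcim at -1.71 (70 and 31 UMIs). Each of these ratios was lower than the one in endothelial cells. In the other young cells 8430408G22Rik stood at only 23.4 CPM and Tcim at 16.4 CPM. The rule genes had a median of -1.68 in the other cells. The part of stray endothelial transcripts in the ratios of 8430408G22Rik and Tcim there was not tested. Ccni was at -1.26 in the other cells, Mtch1 at -1.41 and CAAA01147332.1 at -1.17, and Cebpg was lower as well. Pdgfb was at -0.22 and Gm26917 at -0.19, while Ccl2 went the other way, at 1.60.

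The same rule was also applied to the other libraries, where it gave an age contrast over few cells. The gene lists were chosen with earlier results of these data known, so these values are a description only. In the 8 young and 19 old reload cells (59525 and 59007 UMIs), immediate early genes summed to 12532 and 15812 CPM, a log2 ratio of 0.34 (0.19 to 0.48), against 1.26 (1.22 to 1.29) after HU. Egr1 stood at 1092 and 1864 CPM and Isg15 at 420 and 898 CPM there. The endothelial identity list was lower in old at reload as after HU, at -0.41 (-0.60 to -0.22) against -0.43 (-0.49 to -0.37). The venous list was at -1.18 (-1.65 to -0.72) against -0.84 (-1.21 to -0.49), and Lrg1 gave 63 of its 130 UMIs in young reload. At reload the mural list stood at 2570 CPM in young and 169 CPM in old, and the leukocyte list at 33.6 and 3762 CPM. The macrophage list stood at 84.0 and 6406 CPM there, and the lymphatic list at 67.2 and 1169 CPM (4 and 69 UMIs). These 2 sets of cells thus differed in mural, leukocyte, macrophage and lymphatic transcripts, whose part in the reload values was not tested. In control, with 3 young and 4 old cells, immediate early genes had 293 and 107 UMIs in all, a log2 ratio of -0.39 (-0.72 to -0.06), a value that rests on 7 cells. Over the same 7 cells the endothelial identity list was at 0.05 (-0.48 to 0.57) and the venous list at -0.83 (-2.27 to 0.42).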

How the data were processed

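CD45+ DAPI- cells of 6 pooled soleus samples were sequenced with 10x Genomics 3' chemistry, version 3. The authors deposited unscaled counts, 1 table of UMIs by gene and barcode for each sample. The submitters' notes name Cell Ranger 3.1.0, Seurat and mm10. Every deposited barcode had at least 500 UMIs. No cell annotation was used here, so cells were chosen by the rule in the report. GENCODE vM21 matched 99.86% of 31053 gene identifiers. Totals per library ran from 5782054 UMIs (young HU) to 22749375 (young reload).

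UMIs were summed over the chosen cells of a library and scaled to CPM. The log2 ratio of old over young has an exact conditional Poisson interval, shares have exact binomial intervals, and the difference of shares has a Newcombe interval, all at 95% and for counting error only. PCR duplicates were removed by UMI upstream. With 1 library per group there was no test. The ratio and interval steps were tested on simulated data. The members and the 43 gene lists were chosen with earlier results of these data known. Genes are named if they are among the 10 highest or 10 lowest ratios, if they are rule genes, or if they are the 3 most abundant members or the extremes of a list, and further list members were named after their values were seen. Other settings were mitochondrial limits of 5% and 20%, a minimum of 500 genes, 3 or 5 rule genes, 0 C1q UMIs, a rule on 10 other endothelial genes, no scrublet doublets (scanpy 1.11.5, 0.8% per 1000 barcodes), 0 Ptprc UMIs, TMM factors (edgeR 4.0.16), other totals, equal weights, thinning, UMI minimums of 1, 20 and 100 and a 2-fold threshold. Leaving out cells with leukocyte, mural or hemoglobin transcripts, and asking for an interval past 0, were added after seeing the data. The values of 1 listed gene are not reported here. The software was R 4.3.3, matplotlib 3.10.9, pandas 2.3.3 and scipy 1.17.1 with numpy 2.4.6 under Python 3.11.15.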

Additional observations from a re-analysis of the deposited data

Results flagged for a closer look

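Only the 152 genes chosen by the naming rule were screened here, not every measured gene. Of these, 8 were past 1.5-fold in endothelial cells and past it the other way in all other kept HU cells. Both counting intervals lay past 0 for each, and the difference between the sets of cells was not tested. Jun was at a log2 ratio of old over young of 0.76 in endothelial cells and -0.92 in the others, Hes1 at 0.63 and -0.90, and Adm at 0.77 and -0.86. Gja4 was at 1.19 and -1.21, and turned below 0 in endothelial cells with at most 1 mural gene. Ctla2a was at -0.83 and 1.91, and T cells, which also express it, numbered 30 in young and 137 in old HU; their part was not tested. Ccl2 was at -1.48 and 1.60. Hbb-bs was at -0.64 and 1.32, with UMIs in 21 young and 20 old endothelial cells and a near-identical copy, Hbb-bt, that can share its reads, and Lyz2 at 3.05 and -0.61, with UMIs in 15 young and 19 old endothelial cells.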

How the results depend on the processing

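No paired analysis was possible because each group was 1 library and the labels give no replicate numbers. The lower share of endothelial cells in old HU held under the 12 settings that changed the cells, between -11.4 and -9.05 points, and the immediate early median lay between 1.07 and 1.47 under every setting run. Counts of higher and lower genes moved with the minimum and the threshold: 106 and 123 in thinned cells, 720 and 1008 with at least 20 UMIs, 149 and 146 with at least 100, 3334 and 3722 with at least 1, and 127 and 85 at 2-fold. With TMM factors 326 were higher and 338 lower, and the median of all genes moved from -0.07 to -0.04, against 0.05 without depth scaling. Directions turned for genes held by few cells. With 0 C1q UMIs, 0 scrublet doublets, 0 Ptprc UMIs and 0 leukocyte and macrophage UMIs in turn, Cd74 was at -2.16, -2.13, -2.19 and -0.91, H2-Aa at -2.22, -2.01, -1.99 and -1.09, H2-Ab1 at -2.17, -1.84, -1.81 and -0.80, and H2-Eb1 at -2.02, -1.64, -1.42 and -1.02 (-0.18 when thinned). S100a9 was at -6.15 with 0 C1q UMIs. Without leukocyte and macrophage UMIs Hbb-bs was at 0.16 and Lrg1 at 0.43 (-1.23 to 2.02). In that setting the intervals of Lrg1, Cd74, H2-Aa, H2-Ab1 and H2-Eb1 all held 0, as did that of H2-Eb1 when thinned. The direction of these values is thus not clear of counting error. With at most 1 mural gene Gja4 was at -3.41 and Hbb-bs at 0.28, and with at most 1% hemoglobin Hbb-bs was at 0.82. The fewer cells of these settings are by construction; other causes were not tested. Depth limits genes under 100 UMIs, and 1 library per group limits all of them.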
